A study of Mus musculus with 2 samples.

Results

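The genes described here encode the constitutive proteasome, taken as every row whose gene symbol begins with Psma, Psmb, Psmc or Psmd followed by a number. The immunoproteasome subunits Psmb8, Psmb9 and Psmb10 and pseudogenes were left out. This rule found 37 of the 31053 rows of the count tables. Of these, 31 encode subunits of the constitutive 26S particle: 7 of the 20S alpha ring, 7 of the 20S beta ring, 6 ATPases of the 19S cap and 11 non-ATPase subunits of the cap. A further 3 (Psmd5, Psmd9 and Psmd10) encode chaperones that help to assemble the cap, Psma8 is a testis form, Psmb11 is a thymus form, and Psmc3ip is a recombination factor that matches the rule by its name alone.

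Islets of NOD/ShiLtJ mice, a strain in which lymphocytes infiltrate the islets and autoimmune diabetes can follow, were profiled by droplet single-cell RNA sequencing (10x Genomics, 3' tags with molecular identifiers) at 15 weeks of age. The mice were wild type for this strain and differed in diet. One group ate 16% HC with 4% gluten and the other 20% HC without gluten; the labels do not expand HC. Each diet has 1 library made from 3 pooled mice, so no difference between diets can be tested, and the intervals given below cover counting error only.

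The proteasome degrades proteins tagged with ubiquitin. The 19S cap binds the tag, removes it and unfolds the protein with its ring of ATPases, and the 20S barrel, whose outer rings are of alpha and inner rings of beta subunits, cuts it. Psmb5, Psmb6 and Psmb7 carry the cutting sites of the constitutive form. Under interferon, cells replace them with Psmb8, Psmb9 and Psmb10, in that order, which makes the immunoproteasome, and the peptides that result can be shown to T cells on MHC class I.

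After removal of low-quality cells and of the 6% of cells with the highest doublet scores, 7122 cells of the gluten library and 7111 of the HC library remained. Cells were assigned to classes by marker genes alone, and 11 classes held 50 or more cells in both libraries. Of the kept cells, 12.97% and 6.60% met no class. The classes are named "-like" because they were rebuilt from markers; the cDC2-like class had 1 of its own markers among its 10 leading genes, and the delta-like class had the acinar gene Cela1 among them. In every class the gluten library had fewer molecules (UMIs) per cell and more RNA of immediate early and heat shock genes. In beta-like cells these lists summed to 9144 against 3108 and to 3233 against 2097 CPM (the UMIs of a gene or list scaled to a common total per class and library), and interferon response genes to 446 against 656 CPM. Genes of acinar cells, which surround the islets, summed to 81.4 against 22.6 CPM in beta-like cells and were higher with gluten in all classes. The part of these differences in the diet values below was not tested.

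Promoters are shown for subunits of the cap and of the barrel, whose ratio and members are described by cell class further on. RefSeq start sites of GRCm38.p6 could be matched for 30 of the 37 genes. The 250 bases before each start were searched on both strands for CCGGAAG (an ETS factor core), CCAAT (the CCAAT box), TGANNNNGC (the core of the antioxidant response element, a site type bound by the proteasome regulator Nfe2l1) and the core of the interferon-stimulated response element (GAAA, any 2 bases, GAAA). These motifs were chosen with results of these data known. CCGGAAG occurred in 9 of 30 promoters against 7.05% of 27025 promoters of all genes. It was found in 3 of 5 matched ATPase promoters and 5 of 9 matched non-ATPase promoters, and in 0 of 7 alpha ring and 0 of 4 beta ring promoters; the other was that of Psmc3ip. CCAAT occurred in 43.3% against 34.5%, TGANNNNGC in 40.0% against 35.1% and the interferon core in 10.0% against 3.04%. The last 150 bases before the start are printed for 4 cap genes that carry CCGGAAG, 5' to 3' on the gene's strand, with any of the 4 motifs in capitals (CTTCCGG and ATTGG are the reverse complements of 2 of them).
Psmc1 (chr12:100110052-100110201, plus strand): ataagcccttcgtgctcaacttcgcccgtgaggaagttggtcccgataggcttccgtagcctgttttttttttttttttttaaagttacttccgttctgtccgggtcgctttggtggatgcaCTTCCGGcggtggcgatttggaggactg
Psmc2 (chr5:21785125-21785274, plus strand): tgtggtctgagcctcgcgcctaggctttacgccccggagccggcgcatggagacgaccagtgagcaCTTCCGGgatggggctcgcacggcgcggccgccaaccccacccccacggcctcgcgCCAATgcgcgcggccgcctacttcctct
Psmd6 (chr14:14120946-14121095, minus strand): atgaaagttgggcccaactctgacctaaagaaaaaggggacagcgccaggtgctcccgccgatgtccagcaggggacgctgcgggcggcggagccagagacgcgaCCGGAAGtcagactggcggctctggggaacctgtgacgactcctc
Psmd2 (chr16:20651502-20651651, plus strand): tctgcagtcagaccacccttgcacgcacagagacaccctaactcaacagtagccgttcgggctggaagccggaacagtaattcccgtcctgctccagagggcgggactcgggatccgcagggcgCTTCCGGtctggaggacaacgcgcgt

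The same window is printed for 4 barrel genes that the results below turn on. They hold CCAAT or TGANNNNGC matches in capitals, or none.
Psma1 (chr7:114276117-114276266, minus strand): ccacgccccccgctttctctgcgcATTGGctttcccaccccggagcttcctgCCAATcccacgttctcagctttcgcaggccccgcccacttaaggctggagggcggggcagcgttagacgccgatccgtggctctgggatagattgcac
Psma4 (chr9:54950709-54950858, plus strand): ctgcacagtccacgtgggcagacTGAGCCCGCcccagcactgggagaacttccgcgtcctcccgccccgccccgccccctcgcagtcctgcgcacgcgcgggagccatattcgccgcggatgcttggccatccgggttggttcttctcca
Psma5 (chr3:108256776-108256925, plus strand): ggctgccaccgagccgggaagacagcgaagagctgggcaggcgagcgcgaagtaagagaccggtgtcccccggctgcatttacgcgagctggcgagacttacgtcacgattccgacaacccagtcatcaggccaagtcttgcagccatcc
Psmb5 (chr14:54617996-54618145, minus strand): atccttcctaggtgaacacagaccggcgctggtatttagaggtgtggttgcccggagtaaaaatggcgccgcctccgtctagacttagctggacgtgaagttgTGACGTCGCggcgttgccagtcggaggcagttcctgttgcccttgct

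All 31 subunits were detected in every class of both libraries, whereas the special forms were nearly silent. Psma8 had 32 and 25 UMIs in the kept cells of the gluten and HC libraries, and Psmb11 had 3 and 5. Psma8 UMIs lay mostly in macrophage-like cells (8 and 11 UMIs) and endothelial-like cells (8 and 3 UMIs). The cap chaperones Psmd5 (11.5 and 10.8 CPM in beta-like cells) and Psmd9 (14.7 and 13.4 CPM) and the recombination factor Psmc3ip (15.3 and 16.9 CPM) lay below every 26S subunit in that class.

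The summed level of the 31 subunits differed between classes, but the order depended on what it was divided by. As a share of all UMIs, beta-like cells had the lowest sum, 2051 CPM with gluten and 2374 CPM without, and cDC1-like cells, a type of dendritic cell that presents antigen to CD8 T cells, the highest, 6990 and 7274 CPM. Hormone genes took 66.3% and 67.2% of the UMIs of beta-like cells. When hormone, acinar and mitochondrial genes were left out of the denominator, beta-like cells stood among the highest, at 6633 and 7740 CPM, next to cDC1-like cells at 7316 and 7525 CPM. B-like cells were then the lowest in both libraries, at 4903 and 5078 CPM. Alpha-like cells stood at 5263 and 5901 CPM. The other classes lay between 5458 and 6913 CPM, and their order was not the same in the 2 libraries: macrophage-like cells stood at 5787 and 5628 CPM and mesenchymal-like cells at 5458 and 5945 CPM.

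The ratio of barrel to cap UMIs does not depend on the denominator. In beta-like cells it was 1.58 (95% exact counting interval 1.55 to 1.60) with gluten, the lowest of that library, and 1.69 (1.67 to 1.70) without. It was highest in cDC1-like cells, 2.30 (2.17 to 2.43) and 2.35 (2.23 to 2.47). In the HC library the endothelial-like value, 1.68 (1.60 to 1.76), was the lowest, and it, the delta-like value, 1.70 (1.64 to 1.75), and the PP-like value, 1.79 (1.699 to 1.88), overlapped the beta-like one in their intervals. T-like cells, at 1.92 and 1.87, and alpha-like cells, at 1.85 and 1.84, lay between.

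**Figure D1:**
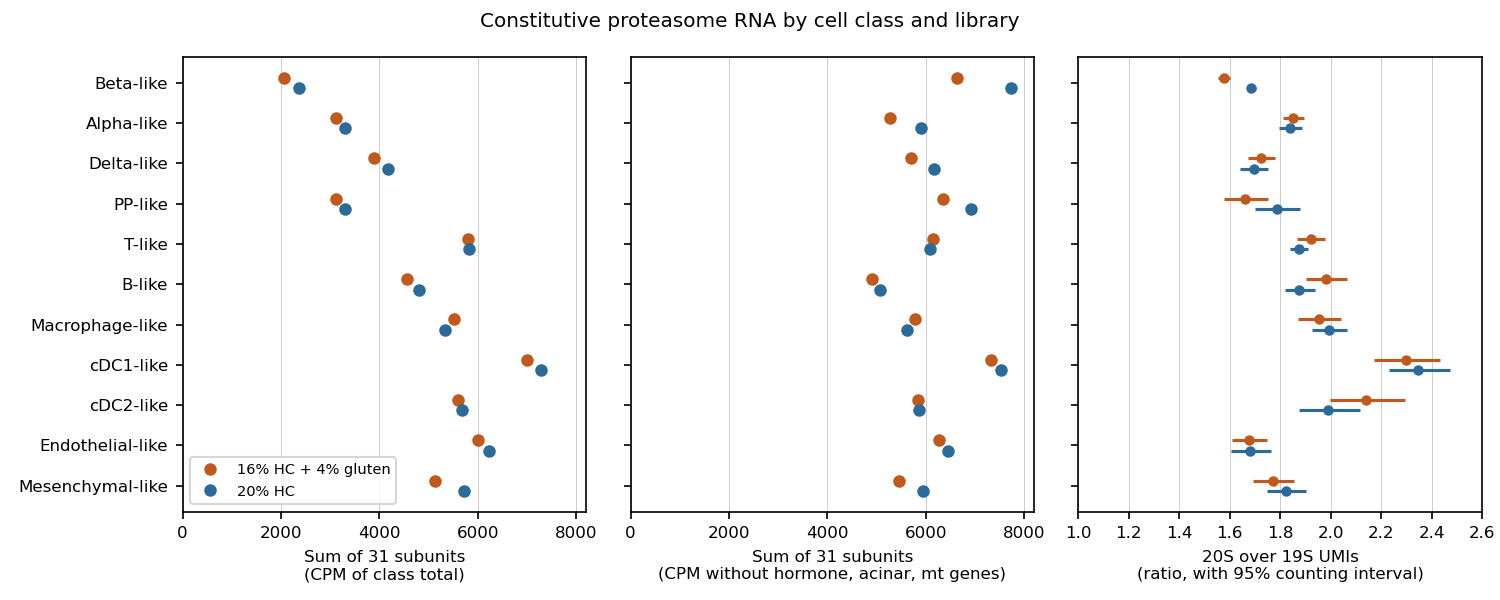
Summed level of the 31 constitutive subunits as CPM of all UMIs (left) and as CPM without hormone, acinar and mitochondrial genes (middle), and the ratio of 20S to 19S UMIs with its 95% counting interval (right; this axis starts at 1). Each point is 1 library in 1 class; beta-like cells move from the lowest sums, 2051 and 2374 CPM, to 6633 and 7740 CPM, and cDC1-like cells have the highest ratios, 2.30 and 2.35.

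The catalytic subunits were read beside their immunoproteasome counterparts. Psmb5, which makes the chymotrypsin-like cut, stood at 88.4 and 115 CPM in beta-like cells, at 227 and 230 CPM in T-like cells and at 336 and 264 CPM in cDC1-like cells. Its counterpart Psmb8 made up 43.6% (exact interval 42.3% to 44.8%) and 54.4% (53.7% to 55.2%) of the UMIs of this pair in beta-like cells. That share was 76.3% and 79.4% in T-like cells, 84.2% and 89.0% in cDC1-like cells and 42.6% and 59.8% in alpha-like cells. The Psmb8 share was lower with gluten in all 11 classes. The share of Psmb9 in its pair with Psmb6 was lower with gluten in 10 of 11, with cDC1-like cells at 81.2% and 80.3%. That of Psmb10 in its pair with Psmb7 was lower in 9 of 11, with cDC1-like cells at 61.5% and 55.2% and macrophage-like cells at 79.1% and 77.7%. These counts take the sign alone, and some intervals overlapped between the libraries. For Psmb10 they ran from 66.2% to 73.5% and 67.4% to 72.9% in B-like cells. In T-like cells they ran from 60.8% to 66.4% and 63.2% to 67.0%. For Psmb8 in macrophage-like cells they ran from 80.1% to 83.5% and 82.1% to 84.6%. The same counts over other gene pairs were not computed.

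Diet was compared within each class as the log2 ratio of CPM, gluten over HC, for genes with 50 or more UMIs where the CPM was higher. In beta-like cells, which make insulin, most subunits were slightly lower in the gluten library. The median log2 ratio of the 35 measured members was -0.19, against -0.02 over all 11079 measured genes. The counting interval lay below 0 for 28 members and above 0 for 1. The share of all genes with such intervals was not computed, and these intervals narrow as UMIs rise. None of the 35 was 1.5-fold apart, against 3.66% of all genes at least 1.5-fold higher and 2.8% at least 1.5-fold lower. At least 1.2-fold lower were 6 members (13.6% of all genes), and 0 were 1.2-fold higher (13.6% of all genes). Of the 35 members, 5 had a ratio above 0, against 47.3% of all genes. All 14 barrel subunits were lower, with medians of -0.23 for the alpha ring and -0.26 for the beta ring. The ATPase and non-ATPase medians were -0.14 and -0.21.

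Psma5, an alpha ring subunit, had the lowest ratio in beta-like cells. It stood at 52.7 CPM (2034 UMIs) with gluten and 74.0 CPM (4815 UMIs) without, a log2 ratio of -0.49 (interval -0.57 to -0.42). The catalytic Psmb5 gave -0.38 (-0.44 to -0.32). The alpha subunit Psma1, at 55.4 and 69.9 CPM, gave -0.33 (-0.41 to -0.26), and the beta subunit Psmb4, at 112 and 139 CPM, gave -0.31 (-0.36 to -0.26). Psmb6 (-0.18) and Psmb7 (-0.19), the other catalytic subunits, were nearer to 0. The scaffold subunit Psmd1 was the one member whose interval lay above 0, at 34.7 and 30.8 CPM and a ratio of 0.17 (0.07 to 0.27). The cap chaperones Psmd5, Psmd9 and Psmd10 gave 0.09, 0.13 and 0.03, with intervals that include 0.

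Genes that work with the proteasome did not move as 1 block in beta-like cells. All 3 immunoproteasome subunits were at least 1.5-fold lower with gluten, with ratios of -1.01 for Psmb8, -0.84 for Psmb9 and -0.67 for Psmb10. The activator subunits Psme1 (-0.50) and Psme2 (-0.47), the assembly factor Pomp (-0.28) and the peptide transporter subunit Tap1 (-0.87) were lower as well. Their lists moved less. At least 1.2-fold lower (13.6% of all genes) were 2 of 6 activators and inhibitors (median -0.03) and 2 of 5 measured assembly factors (-0.25). So were 4 of 6 genes of peptide transport and loading (-0.38). The heat shock chaperone Hspa1a (2.19) was higher. Its list had a median of 0.48, with 11 of 15 genes at least 1.2-fold higher (13.6% of all genes). Of the ubiquitin genes 3 of 4 were at least 1.2-fold higher (median 0.39). The TRiC chaperonin, a complex that folds proteins, gave a median of 0.06 over 7 measured genes, and the COP9 signalosome, a relative of the 19S lid, -0.08 over 9. The regulator Nfe2l1 gave -0.05 (-0.15 to 0.05).

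Because interferon response genes were lower with gluten, the diet ratio was also taken within the 25% of beta-like cells with the least and the 25% with the most interferon response RNA of each library. This was chosen after the data had been seen. In the bottom 25% the 35 members had a median of -0.13 (all genes -0.007) and 28 lay below 0. In the top 25% the median was -0.19 (all genes -0.032) and 31 lay below 0. The share of all genes below 0 in these cells was not computed. Psma5 gave -0.46 and -0.40 in these cells and Psmb5 -0.32 and -0.31. The alpha ring median was -0.11 in the bottom 25% and -0.26 in the top 25%. The cells were chosen within each library and did not match in level. Interferon genes summed to 24.5 and 47.6 CPM in the bottom 25% of the gluten and HC libraries and to 1475 and 1980 CPM in the top 25%. The split therefore does not hold interferon level constant, and the part of interferon in the diet ratios was not tested.

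In alpha-like cells, which make glucagon, the members' median was -0.08 (all genes 0.07), with 2 of 35 at least 1.2-fold higher (24.2% of all genes) and 5 at least 1.2-fold lower (12.8% of all genes); 0 were 1.5-fold apart, against 6.48% of all genes higher and 3.02% lower. Psma5 fell on the same side as in beta-like cells, at 98.3 and 138 CPM (-0.49, -0.61 to -0.37), and so did Psma4, at 69.5 and 96.3 CPM (-0.47, -0.62 to -0.33). Psmd1 gave -0.49 (-0.68 to -0.31) here, opposite in sign to beta-like cells, and the deubiquitinase Psmd14 gave -0.34 (-0.56 to -0.11). Psmd3 (0.41, 0.22 to 0.59), Psmd9 (0.36, 0.13 to 0.60) and Psma3 (0.13, 0.05 to 0.22) were higher with gluten. In delta-like cells the median was -0.11, with 3 of 35 members at least 1.2-fold lower (17.9% of all genes), 1 higher (14.8%) and 0 past 1.5-fold (3.85% higher and 3.67% lower). In PP-like cells the median was -0.05, with 7 of 33 members at least 1.2-fold lower (18.4%) and 3 higher (20.2%), of which Psmd9 passed 1.5-fold (59 and 39 UMIs; 0.60, -0.0030 to 1.23; 5.11% of all genes), while 0 were 1.5-fold lower (3.79%).

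In T-like cells the subunits were level between the diets, with a median of -0.01 against -0.10 over all genes and 1 of 35 members at least 1.2-fold lower (30.9% of all genes) and 0 higher (13.4%); 0 passed 1.5-fold (4.94% higher and 10.4% lower). That member was Psmc3ip (61 and 182 UMIs; -0.47, -0.91 to -0.04). Psma3 was higher with gluten, at 431 and 370 CPM (0.22, 0.13 to 0.31). Psma7, at 341 and 397 CPM (-0.22, -0.31 to -0.12), Psma5, at 148 and 175 CPM (-0.24, -0.39 to -0.10), and the lid subunit Psmd7, at 117 and 139 CPM (-0.25, -0.42 to -0.09), were lower.

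In B-like cells the median was -0.16, close to that of all genes (-0.13), and 10 of 35 members were at least 1.2-fold lower (34.5% of all genes) and 1 higher (12.8%). The chaperone Psmd5 gave the lowest ratio of any member and class, with 33 and 98 UMIs (-0.99, -1.61 to -0.41), and Psmc3ip was the other of 2 members at least 1.5-fold lower (12.4% of all genes), with 0 higher (4.46%). Psma4 (-0.46), the ubiquitin receptor Psmd4 (-0.41) and Psmd11 (-0.43) were lower, and Psmd8 (0.34, 0.16 to 0.51) and Psma3 (0.21, 0.08 to 0.35) were higher with gluten.

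In macrophage-like cells the members' median was 0.07 against -0.08 over all genes, the highest of the classes on this scale. Its interval, -0.06 to 0.13, included 0. Under TMM the cDC2-like median was higher, 0.13 against 0.12, and with Leiden clusters the macrophage-like median was -0.02. At least 1.2-fold higher were 2 of 33 members (17.1% of all genes), and 1 was lower (29.6% of all genes). At 1.5-fold 0 passed (6.32% of all genes higher and 9.79% lower). Those higher were Psmd14, at 94.6 and 69.7 CPM (157 and 187 UMIs; 0.44, 0.12 to 0.75), and Psmc1 (0.29, -0.13 to 0.71). Psma3, at 340 and 288 CPM, gave 0.24 (0.08 to 0.40). The ATPase Psmc3 was lower, at 112 and 143 CPM (-0.35, -0.61 to -0.10).

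In the remaining classes the medians lay between -0.08 and -0.02. In cDC1-like cells 2 of 30 members were at least 1.2-fold higher (19.2% of all genes) and 3 lower (24.9%), and in cDC2-like cells 1 of 30 higher (15.3%) and 3 lower (34.0%). In endothelial-like cells 0 of 33 were higher (19.4%) and 3 lower (19.3%), and in mesenchymal-like cells 1 of 35 higher (17.8%) and 7 lower (29.4%). At 1.5-fold the only member in these 4 classes was Psmd9 in endothelial-like cells, lower with gluten (56 and 66 UMIs; -0.64, -1.18 to -0.10). The shares of all genes past 1.5-fold, higher and lower, were 7.24% and 7.36% in cDC1-like, 5.83% and 12.9% in cDC2-like, 6.45% and 4.28% in endothelial-like and 6.45% and 9.5% in mesenchymal-like cells.

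Psma5 and the ubiquitin receptor Psmd4 were lower with gluten in all 11 classes. They were 2 of the 30 members measured in every class, close to the share among all genes. Of the 1533 genes measured in every class, 5.28% were lower in all of them. No member was higher in all 11, against 5.87% of those genes. The Psma5 ratios ran from -0.49 in beta-like to -0.13 in macrophage-like cells, and its interval lay below 0 in 8 classes. Psmd4 ran from -0.41 in B-like to -0.08 in endothelial-like cells, with 4 intervals below 0. Psma4, Psma7, Psmd6, Psmd11 and Psmd13 were lower in 10 of 11, and Psmc1 was higher in 8 of 9. Psmc3ip, measured in 7 classes, was lower in all 7 (median -0.36). The shares of all genes with such patterns were not computed.

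**Figure D2:**
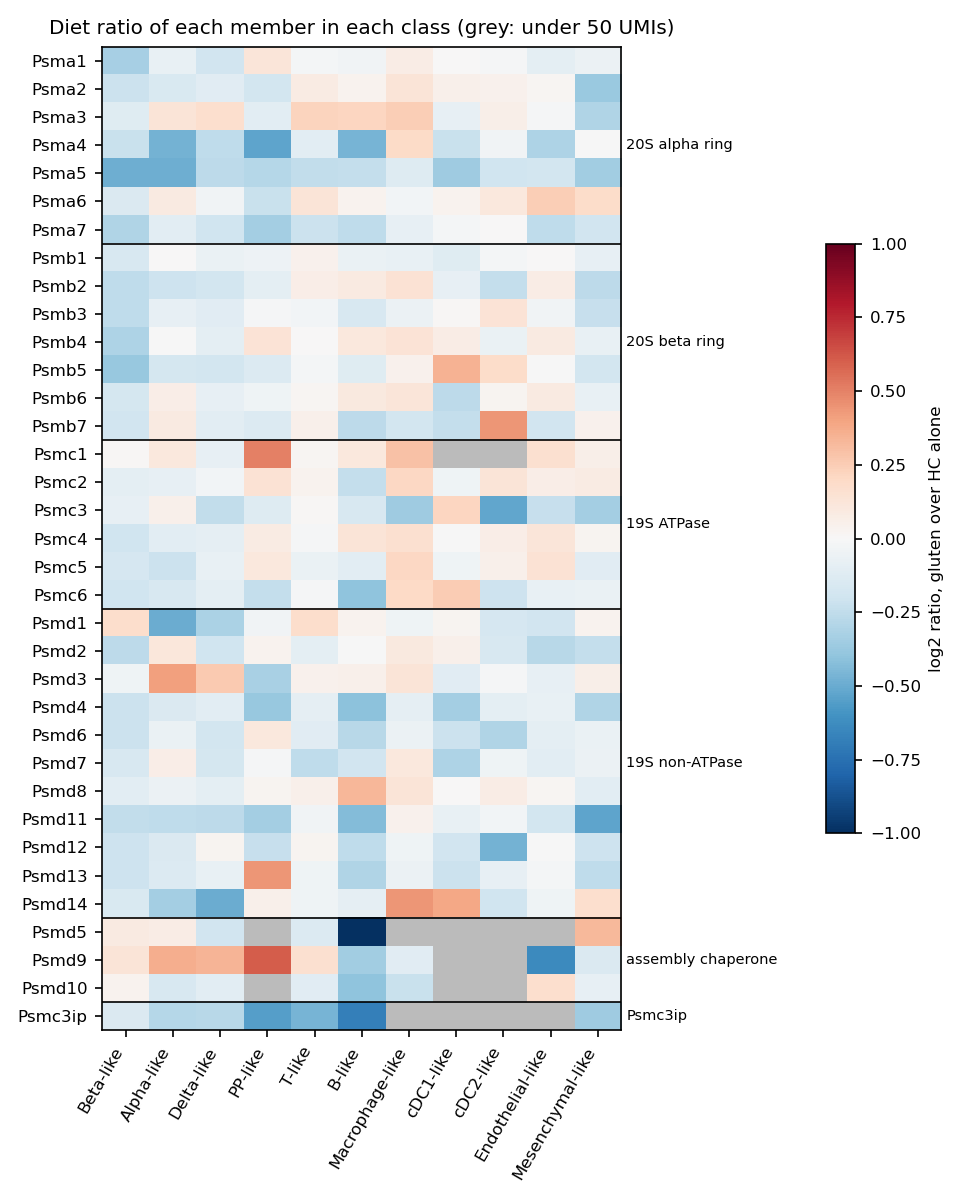
Log2 ratio of CPM, gluten over HC alone, for each member (rows, grouped by role) in each class (columns); grey marks members with under 50 UMIs where the CPM was higher. The beta-like column is mostly blue (median -0.19, all genes -0.02), Psma5 is blue in all 11 classes, and the T-like column is near white (median -0.01).

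Classes were compared with edgeR on UMI sums per class and library, with library as a block and Benjamini-Hochberg adjusted p-values over all genes, called under 0.05. The 2 libraries, which differ in diet, are the only replicates, and whether the spread between them is biological or technical cannot be told apart.

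Endocrine-like cells (beta, alpha, delta and PP) were compared with immune-like cells (T, B, macrophage, cDC1 and cDC2), and the alpha ring had the lowest median difference of the 4 parts of the particle. Of 36 members tested, 21 were lower in endocrine-like cells (32.1% of all genes) and 4 were higher (43.7% of all genes). All 7 alpha subunits and 5 of 7 beta subunits were lower, against 3 of 6 ATPases and 5 of 11 non-ATPase subunits, and the group medians were -0.61, -0.38, -0.08 and -0.07. These directions depend on scaling: with no scaling beyond totals 33 members were lower and 1 higher (median -0.75, all genes -0.27), and with totals that leave out hormone, acinar and mitochondrial genes, chosen after the data had been seen, 9 were lower and 18 higher (median 0.23, all genes 0.70). The members' median lay below that of all genes under each of these 3, and in the fit reported first it was -0.29 against 0.18.

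The subunits lower in endocrine-like cells under all 3 scalings included Psmc3, Psma4, Psmb1 and Psma1. Their sizes moved with the scaling, from -1.50, -1.53, -1.14 and -1.28 with no scaling beyond totals to -0.55, -0.58, -0.19 and -0.33 with hormone, acinar and mitochondrial genes left out and no further scaling. The log2 differences given next are under TMM, which is not the scale of the CPM beside them. Psmc3, an ATPase, stood at 69.4, 92.6 and 109 CPM (lowest, median and highest of 8 endocrine-like values, without hormone, acinar and mitochondrial genes) against 88.9, 127 and 191 CPM in 10 immune-like values, so the ranges overlapped and the endocrine-like median lay inside the immune-like range. Its log2 difference was -1.04 ± 0.07 (SE, adjusted p = 4.9e-11). Psma4 ran from 117 to 221 CPM against 142 to 450 CPM, and its difference was -1.07 ± 0.08 (adjusted p = 2.2e-10). Psmb1 gave -0.67 ± 0.05 (adjusted p = 4.9e-10) and Psma1 -0.81 ± 0.06 (adjusted p = 5.0e-10).

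The ATPase Psmc1, the recombination factor Psmc3ip and the cap subunit Psmd2 did not overlap between the groups on that scale. The share of all genes without overlap was not computed. Psmd2 ran from 113 to 175 CPM in endocrine-like and from 72.9 to 110 CPM in immune-like cells. Under TMM it gave 0.05 ± 0.07 (adjusted p = 0.58). Psmc1 ran from 67.1 to 115 CPM in endocrine-like and from 34.3 to 57.8 CPM in immune-like cells, and gave 0.35 ± 0.08 (adjusted p = 0.00036), or -0.12 with no scaling beyond totals. Psmc3ip ran from 30.4 to 68.6 against 12.5 to 25.7 CPM, highest in delta-like cells (38.4 and 46.6 CPM of all UMIs), and gave 0.89 ± 0.10 (adjusted p = 7.9e-08). The cap subunits Psmd6 (0.25 ± 0.06, adjusted p = 0.00089) and Psmd7 (0.14 ± 0.06, adjusted p = 0.041) were also called higher, with -0.22 and -0.32 when no scaling beyond totals was used. Among the catalytic subunits, Psmb5 (-0.21 ± 0.07, adjusted p = 0.017) and Psmb7 (-0.45 ± 0.08, adjusted p = 2.4e-05) were lower and Psmb6 (-0.04 ± 0.06, adjusted p = 0.64) did not pass. Without hormone, acinar and mitochondrial genes the medians went the other way, at 285 CPM in endocrine-like against 235 CPM in immune-like values for Psmb5 and at 129 against 118 CPM for Psmb7, so these directions depend on the scaling.

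All 3 immunoproteasome subunits were lower in endocrine-like cells (median -2.25), as were Psme1 (-1.64), Psme2 (-1.42) and Pomp (-0.84). The Nfe2l1 axis had 1 of 6 genes higher, Nfe2l1 itself (0.86 ± 0.11, adjusted p = 5.2e-07), and 4 lower, with Nfe2l2 at -1.23. The p97 and ER-associated degradation list had 6 of 13 higher and 3 lower.

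Beta-like cells were compared with alpha-like cells in the same fit. Of 36 members, 16 were higher in beta-like cells (19.4% of all genes) and 0 lower (18.4% of all genes): 5 of 6 ATPases, 6 of 11 non-ATPase subunits, 3 of 7 beta subunits, 0 of 7 alpha subunits, the chaperone Psmd10 and Psmc3ip. The median was 0.34 (all genes -0.01), and those of the parts were 0.25 for the alpha ring, 0.30 for the beta ring, 0.48 for the ATPases and 0.35 for the non-ATPase subunits; no test set one part against another. When only these 2 classes were fitted, 27 members were higher and 1 lower. With no scaling beyond totals, where hormones weigh most, the sign turned to -0.53 with 31 members lower, and that of all genes moved to -0.85. Without hormone, acinar and mitochondrial genes, the lid subunit Psmd6 stood at 238 and 279 CPM in beta-like cells of the gluten and HC libraries. In alpha-like cells it stood at 138 and 153 CPM. Its difference was 0.78 ± 0.11 (adjusted p = 1.6e-05), or -0.08 with no scaling beyond totals. Psmb2 stood at 370 and 446 against 213 and 260 CPM (0.75 ± 0.13, adjusted p = 0.00015). Psmc2 (0.58 ± 0.12, adjusted p = 0.00096) and Psmd7 (0.53 ± 0.12, adjusted p = 0.0013) followed, and Psmb6 gave 0.48 ± 0.12 (adjusted p = 0.0042). Psma5, by contrast, stood at 170 and 241 against 165 and 247 CPM (-0.04). The list with most calls beside the members was p97 and ER-associated degradation, with 10 of 13 genes higher and 0 lower. Derl3 (3.71 ± 0.29, adjusted p = 1.0e-08), Edem1 (2.67 ± 0.17, adjusted p = 3.1e-10) and Sel1l (1.15 ± 0.17, adjusted p = 1.8e-05) belong to it. The TRiC chaperonin had 0 of 7 higher and 2 lower.

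**Figure D3:**
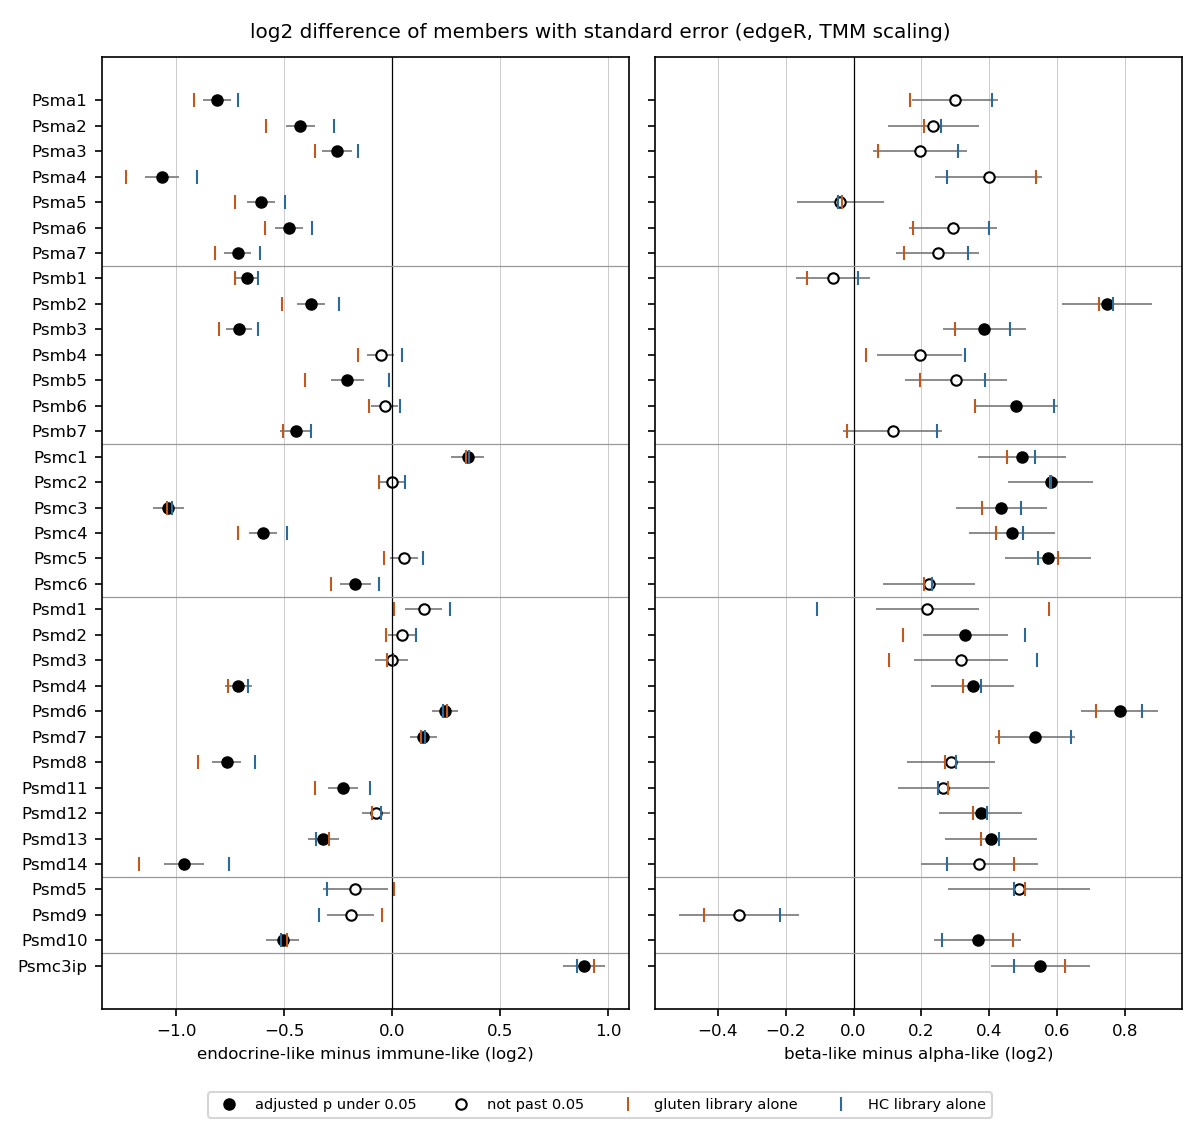
Log2 difference of each tested member with its standard error, endocrine-like minus immune-like (left) and beta-like minus alpha-like (right), under TMM scaling; filled points have an adjusted p under 0.05 and ticks show each library alone, and Psma8 is not drawn. All 7 alpha ring points lie left of 0 in the left panel, and 5 of 6 ATPase points are filled and right of 0 in the right panel; the right panel's median turns from 0.34 to -0.53 with no scaling beyond totals, and the left panel's from -0.29 to 0.23 with unscaled totals that leave out hormone, acinar and mitochondrial genes.

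Among the immune-like classes, myeloid-like cells (macrophage, cDC1 and cDC2) were compared with lymphocyte-like cells (T and B). Of 36 members, 15 were higher (21.0% of all genes) and 1 lower (22.8% of all genes), with 4 of 7 alpha subunits, 5 of 7 beta subunits, 1 of 6 ATPases and 4 of 11 non-ATPase subunits among the higher ones. The remaining call was Psma8, which rests on 8 and 11 UMIs in macrophage-like, 2 and 2 in cDC1-like and 3 and 1 in cDC2-like cells, so no fold is given. Under unscaled totals 13 members were higher and 3 lower. Leaving out hormone, acinar and mitochondrial genes with no further scaling gave 11 and 3. The classes within each group differed. Without those genes the summed subunits stood at 6140 and 6083 CPM in T-like cells. That is above macrophage-like (5787 and 5628 CPM) and cDC2-like cells (5835 and 5867 CPM). The cDC1-like sums were 7316 and 7525 CPM and the B-like sums 4903 and 5078 CPM. Psma5 ran from 247 to 392 CPM (median 287, 6 values, without hormone, acinar and mitochondrial genes) in myeloid-like and from 129 to 183 CPM (median 153, 4 values) in lymphocyte-like cells, with no overlap. Its difference was 1.02 ± 0.09 (adjusted p = 1.5e-08). Psma7 did not overlap either, at 463 to 657 against 281 to 415 CPM (0.72 ± 0.08, adjusted p = 5.7e-07). Psmb2 (0.61 ± 0.09, adjusted p = 1.6e-05) and the catalytic subunits Psmb7 (0.57 ± 0.11, adjusted p = 0.00017), Psmb5 (0.40 ± 0.10, adjusted p = 0.0035) and Psmb6 (0.38 ± 0.08, adjusted p = 0.0012) were higher too. Psmd5, the chaperone that had so low a ratio in B-like cells, was lower, at 11.4 to 26.8 against 15.1 to 36.0 CPM (-0.68 ± 0.20, adjusted p = 0.011). The chaperone Psmd9 did not overlap in the lower direction, at 28.9 to 41.0 against 41.6 to 53.3 CPM (-0.35 ± 0.15, adjusted p = 0.068). Psma8, on its few UMIs, did not overlap either. The share of all genes without overlap was not computed. Among the barrel subunits that did not pass were Psmb1 (-0.12) and Psma2 (-0.05). The immunoproteasome list had 3 of 3 higher (median 1.02), and Pomp, which matures the barrel, gave 1.16 ± 0.09 (adjusted p = 5.4e-09).

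The cDC1-like class was also set against the mean of the other 10, a comparison added after the data had been seen. Under TMM 24 of 36 members were higher (20.2% of all genes) and 0 lower (13.1% of all genes), with all 14 barrel subunits among the higher ones and Psma8, on 2 UMIs in each library, counted as well. Psma4 stood at 391 and 450 CPM without hormone, acinar and mitochondrial genes (1.30 ± 0.11, adjusted p = 2.2e-08). Psma5 gave 0.99 ± 0.10 (adjusted p = 9.6e-08) and Psmb7 1.03 ± 0.12 (adjusted p = 6.8e-07). With totals that leave out hormone, acinar and mitochondrial genes and no further scaling, 14 were higher and 1 lower, against 20 and 1 for beta-like and 14 and 1 for PP-like cells set against their own others. With no scaling beyond totals, 28 were higher and 0 lower, against 32 and 0 for endothelial-like cells. The class holds 75 and 68 cells.

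Cycling T-like cells, those with at least 3 cell-cycle genes detected, exceeded the other T-like cells in many subunits of both barrel and cap. Of 35 members tested, 23 were higher (10.6% of all genes) and 0 lower (16.9% of all genes), with a median of 0.60 against -0.26 over all genes. They comprised 6 of 7 alpha subunits, 5 of 7 beta subunits, 4 of 6 ATPases and 8 of 11 non-ATPase subunits. Psmd6 stood at 170 and 185 CPM of all UMIs in the cycling cells of the gluten and HC libraries and at 82.4 and 89.5 CPM in the others (0.84 ± 0.12, adjusted p = 3.5e-05). Psmb2 stood at 360 and 400 against 192 and 168 CPM (0.87 ± 0.14, adjusted p = 7.0e-05), Psma5 at 248 and 285 against 116 and 142 CPM (0.84 ± 0.14, adjusted p = 9.2e-05), and Psmb3 at 439 and 455 against 229 and 234 CPM (0.74 ± 0.13, adjusted p = 0.00016). None of these overlapped between the groups, but they were picked for their small adjusted p. Each group has only a gluten and an HC value, and the share of all genes without overlap was not computed. The catalytic Psmb5, Psmb6 and Psmb7 gave 0.79, 0.63 and 0.76. Psmb1, a beta subunit, did not follow, at 642 and 576 against 602 and 600 CPM, nor did Psmd4, at 179 and 189 against 178 and 189 CPM.

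The neighbouring lists split in the cycling cells. All 7 tested TRiC genes were higher (median 0.65), as were 4 of 5 assembly factors, among them Psmg1 (0.90 ± 0.20, adjusted p = 0.0021) and Pomp (0.47 ± 0.14, adjusted p = 0.016). None of the 3 immunoproteasome subunits passed (median 0.03). The cycling cells numbered 76 and 110 and had a median of 8680.5 and 14188.5 UMIs, against 2251 and 2711 in the other T-like cells; the part of this difference in depth was not tested.

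**Figure D4:**
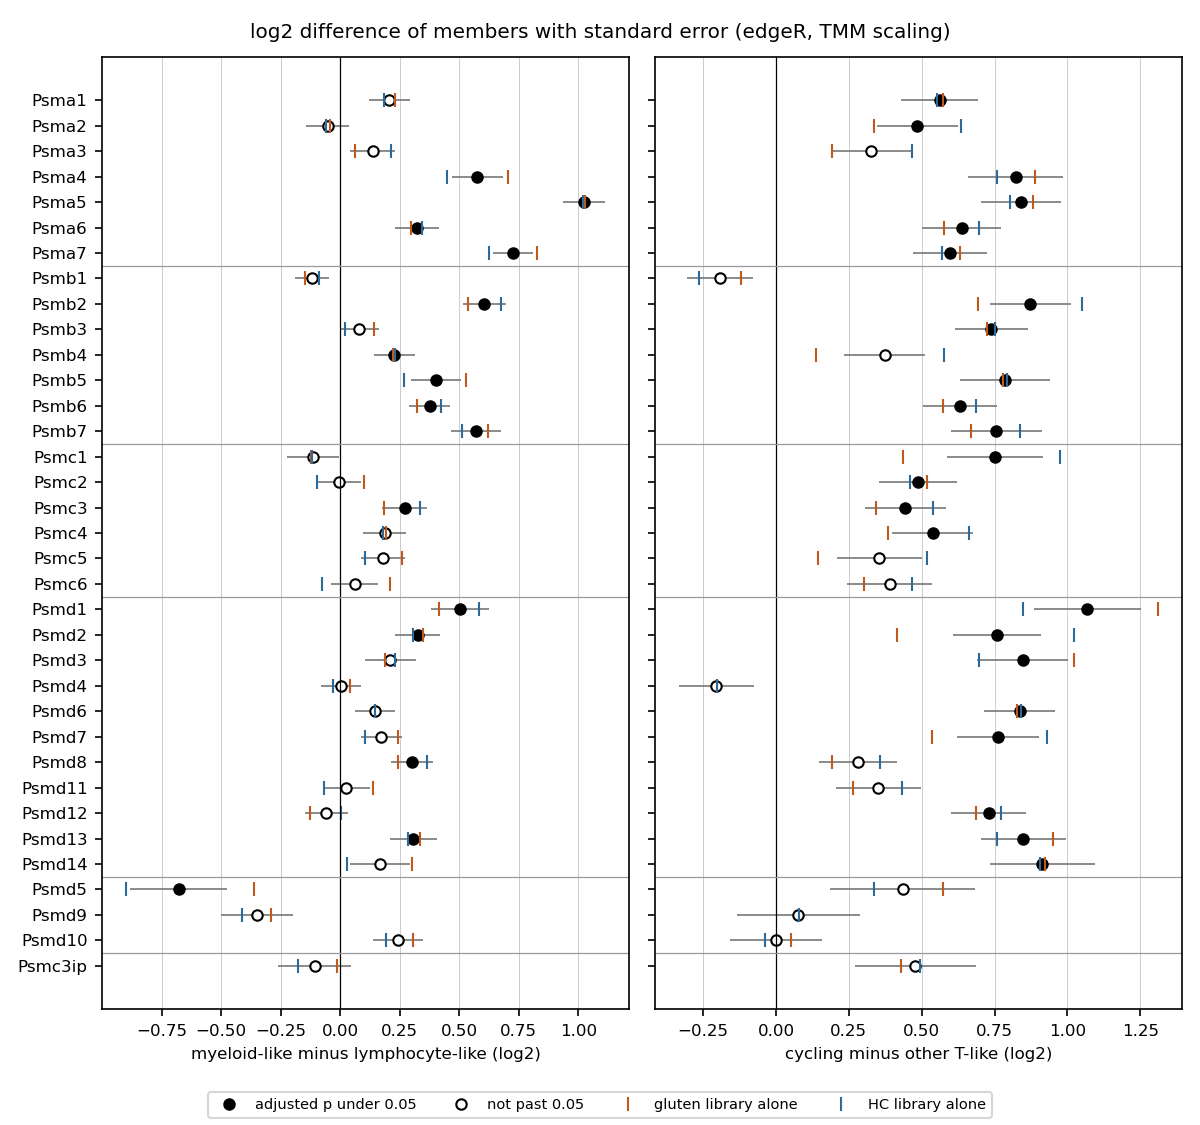
Log2 difference of each tested member with its standard error, myeloid-like minus lymphocyte-like (left; Psma8 is not drawn) and cycling minus other T-like cells (right), under TMM scaling; filled points have an adjusted p under 0.05 and ticks show each library alone. In the right panel 23 members are filled and right of 0, and Psmb1 and Psmd4 lie left of 0 and are open.

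Beta-like cells were also compared by their interferon response RNA. The top and bottom 25% of cells by that RNA, 312 cells each in the gluten library and 400 each in the HC library, were compared in each library with no test. The 35 members had medians of 0.14 with gluten and 0.17 without, against 0.05 and 0.07 over all genes. At least 1.2-fold higher were 7 of 35 in each library (19.5% and 19.3% of all genes), close to their share among all genes, and 1 and 0 were at least 1.2-fold lower (9.19% and 6.32% of all genes). The alpha ring medians were 0.28 and 0.34, the beta ring medians 0.17 and 0.19, and the ATPase medians 0.04 and 0.12. Within the alpha ring, the intervals of Psma6 (0.03, -0.15 to 0.21) and Psma4 (0.14, -0.04 to 0.32) included 0 in the gluten library. When hormone, acinar and mitochondrial genes were left out of the total, the members' medians fell to 0.02 and 0.06. This change of total shifts the ratios of all genes of a library alike. The all-gene medians above are therefore not on this scale.

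Psma5 had the largest ratio of the members in both libraries. It stood at 73.2 CPM in the top and 43.6 CPM in the bottom 25% of the gluten library (0.75, 0.57 to 0.93) and at 96.9 and 59.9 CPM in the HC library (0.69, 0.58 to 0.81). Psma7 gave 0.41 and 0.46, Psma2 0.30 and 0.37 and Psmb4 0.29 and 0.26. Psmb5, the catalytic subunit that Psmb8 replaces, was also on the higher side, at 0.19 in both libraries, while Psmb8 itself gave 2.91 and 2.23. Psme1 gave 1.66 and 1.23, and Pomp gave 0.53 in both. The top cells were slightly deeper, at a median of 27802.5 against 26940 UMIs with gluten and 38196.5 against 35497 without; the part of this in the ratios was not tested.

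**Figure D5:**
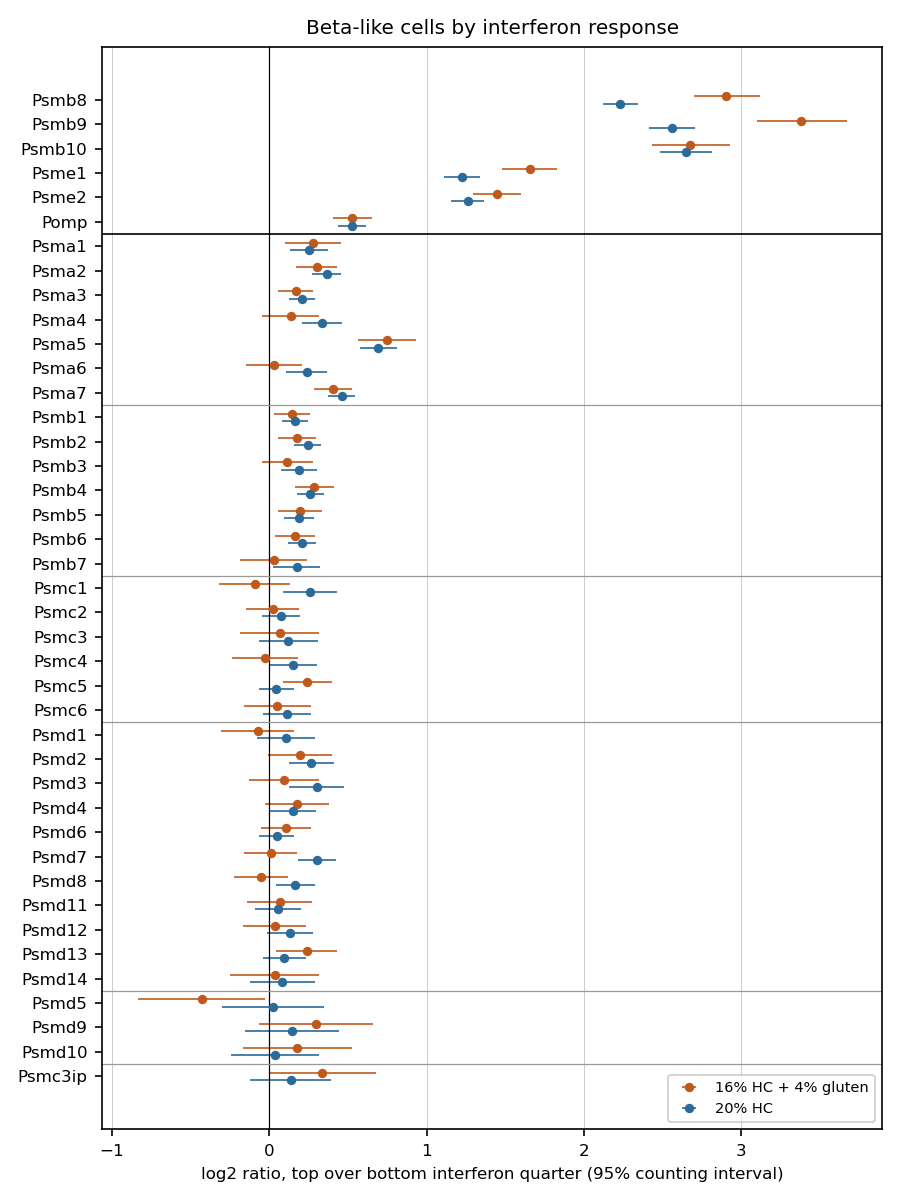
Log2 ratio of CPM between the top and bottom 25% of beta-like cells by interferon response RNA, with 95% counting intervals, in each library; the upper 6 genes are not members. Psma5 lies at 0.75 and 0.69, above all other members, and the 3 immunoproteasome subunits lie above 2.

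Across the 22 values of 11 classes and 2 libraries, without hormone, acinar and mitochondrial genes, the subunits differed in how far each followed the rest. As a description over values that share libraries and denominators, Pearson's r between a member and the sum of the other subunits was highest for Psmb5 (0.83) and Psma6 (0.80) and lowest for the chaperone Psmd9 (-0.29) and the subunit Psmb1 (0.12).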

How the data were processed

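UMI counts per gene and cell, deposited by the authors as 1 table per library, were used; Cell Ranger 4.0.0 and the mm10 build are named in the submitters' processing notes, and the annotation release is not given in the sources used here. The libraries held 8200 (gluten) and 7758 (HC) barcodes with 88268070 and 116900677 UMIs, and shared 15 barcodes; median depth of kept cells was 6401 and 5460 UMIs. Ensembl IDs were given symbols from GENCODE vM21 (31011 of 31053 matched). Cells with at least 500 UMIs, 200 genes and at most 20% mitochondrial UMIs were kept (7577 and 7565). Scrublet's own threshold called 3 and 2 doublets, so the 6% of cells with the highest scores were removed instead.

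Cells were gated by the mean scaled level of marker lists (score of at least 0.5, a margin of 0.2 over the next list, at least 3 markers raised). The marker lists contained no member, the thresholds were set after cell scores had been seen, and 12.9% and 6.54% of kept cells lay within 0.1 of the gate. UMIs were summed per class and library. Diet ratios are of CPM, with exact conditional binomial 95% intervals; UMIs are molecules, so no length correction was made. Class contrasts used edgeR 4.0.16 (TMM, quasi-likelihood, library as block, R 4.3.3), with DESeq2 1.42.0 as an alternative. The fit was also run on simulated data in which all classes shared a common mean profile apart from the changed genes. That run cannot show how the fit handles hormone RNA that differs between classes. Lists and members were chosen with earlier results of these data known. Named members are up to 4 per direction with the interval bound farthest from 0 (diet) or the smallest adjusted p (contrasts), the catalytic subunits and the members outside the 26S particle; others named were chosen after their values were seen. The values of some list genes are not reported here.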

Additional observations from a re-analysis of the deposited data

Results flagged for a closer look

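For 4 members the diet ratio was at least 1.2-fold in opposite directions in 2 classes, with each counting interval on its own side of 0. With 1 library per diet these differences were not tested. The share of all genes that meet this rule was not computed, so the count does not show a trait particular to the members. Psmb5 gave a log2 ratio of 0.35 (gluten over HC) in cDC1-like cells and -0.38 in beta-like cells. Psmd13 gave 0.44 in PP-like and -0.30 in B-like cells. Psmd14 gave 0.44 in macrophage-like and -0.49 in delta-like cells. Psmd9 gave 0.36 in alpha-like and -0.64 in endothelial-like cells. Only 1 pair of classes is named for each gene. The intervals of 4 more members lay on both sides of 0 without 1.2-fold in both directions: Psmd1 (0.17 in beta-like and -0.49 in alpha-like cells), Psma3 (0.24 in macrophage-like and -0.30 in mesenchymal-like cells), Psmb7 (0.44 in cDC2-like and -0.19 in beta-like cells) and Psmd8 (0.34 in B-like and -0.10 in beta-like cells).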

How the results depend on the processing

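No paired analysis was possible because each diet has 1 library; without the replicate block for library, the class contrasts called 3 members higher and 21 lower (endocrine against immune), 11 and 0 (beta against alpha), 14 and 1 (myeloid against lymphocyte) and 22 and 0 (cycling T). Each library alone gives no count; the members' medians ranged from -0.38 to -0.28, 0.31 to 0.40, 0.19 to 0.23 and 0.54 to 0.66. Scaling mattered most. With no scaling beyond totals, endocrine against immune gave 1 higher and 33 lower (Psmc1 -0.12, Psmd6 -0.22, Psmd7 -0.32). On that scale beta against alpha gave 0 and 31 (median -0.53, Psmd6 -0.081, Psmb2 -0.12, Psmc2 -0.28, Psmd7 -0.33), and myeloid against lymphocyte 13 and 3. With hormone, acinar and mitochondrial genes left out and no further scaling, endocrine against immune gave 18 and 9 (median 0.23), and myeloid against lymphocyte 11 and 3. Leaving these genes out under TMM also gave 3 lower in myeloid against lymphocyte. With no filter, endocrine against immune gave 2 higher and myeloid against lymphocyte 2 lower, as with doublets kept. Fitting only the classes compared gave 27 higher and 1 lower in beta against alpha. The cause of these changes was not tested.

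The diet medians moved to -0.17 in alpha-like cells without hormone, acinar and mitochondrial genes, to 0.050 in T-like cells and 0.0048 in mesenchymal-like cells under TMM, and to -0.13 in the 25% of beta-like cells with the least interferon response RNA. The median over all genes shifted under TMM by 0.16 in cDC2-like and 0.10 in B-like cells; size factors from median ratios shifted it by 0.14 in cDC2-like cells. The 2 members at least 1.5-fold apart in the delta-like, PP-like, cDC1-like, cDC2-like, endothelial-like and mesenchymal-like classes became 7 at a minimum of 10 UMIs, 8 with no minimum, 1 with doublets kept, 1 with Leiden clusters (which lack PP-like and cDC2-like cells), 34 at 1.2-fold and 0 at 2-fold. The interferon medians were 0.053 and 0.11 when each library was split at 50% of its cells and 0.023 and 0.060 without hormone, acinar and mitochondrial genes (gluten and HC). Low counts limit Psma8, Psmb11 and the chaperones in the smaller classes.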
